A study of Mus musculus with 6 samples.

Results

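The thioredoxin and peroxiredoxin system was followed through 10 genes, taken by symbol from an expression table of 16426 genes. They were the thioredoxins Txn1 and Txn2, the thioredoxin reductases Txnrd1 and Txnrd2, the peroxiredoxins Prdx1, Prdx2, Prdx3, Prdx5 and Prdx6, and sulfiredoxin, Srxn1. Messenger RNA was measured in 6 samples of the murine mammary carcinoma line 4T1-LM3, all of them kept in conditioned medium (CM), the fluid that carries what donor cells release. Tdo2high matrix fibroblasts (MFs), named for the tryptophan-degrading enzyme Tdo2, supplied the medium of 3 samples. The other 3 samples received a control CM. The labels name neither the cells behind the control medium nor the length of exposure, and a single line was used. Nothing in the labels says that replicates were grown separately; each p-value therefore speaks only of the spread among these libraries, which could be technical.

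Thioredoxins are small proteins that pass electrons to oxidised partner proteins, and thioredoxin reductases recharge them with electrons from NADPH. Peroxiredoxins destroy hydrogen peroxide and are mostly recharged by thioredoxin. In some of them, sulfiredoxin restores the active cysteine when it is overoxidised. Cells run a cytosolic and a mitochondrial version of this chain, encoded by different nuclear genes. Txn1, Txnrd1, Srxn1, Prdx1, Prdx2 and Prdx6 encode mainly cytosolic proteins, Txn2, Txnrd2 and Prdx3 mitochondrial ones, and the Prdx5 protein is found in mitochondria, peroxisomes and cytosol. Several genes of this chain are textbook targets of NRF2, a transcription factor that binds antioxidant response elements. The members were not sorted by whether they are such targets, and the part of NRF2 in the results below was not tested.

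Values are FPKM, fragments scaled to transcript length and to the mapped fragments of the library, so levels of different genes are compared per length. The FPKM of a library added up to 438603 at the lowest and 447415 at the highest, and the read depth is unknown. Across the 10804 tested genes Pearson's r of log2(FPKM + 1) was 0.997 to 0.998 between libraries of 1 group and 0.996 between libraries of different groups. Of the epithelial markers, Krt8 (264 to 289 FPKM) and Krt18 (347 to 382 FPKM) were abundant, while Cdh1 (0 to 0.02 FPKM) and Epcam (0.03 to 0.11 FPKM) were nearly absent in each library. Markers of fibroblasts were mixed: Col1a1 did not exceed 0.12 FPKM, but Pdgfra lay between 41.7 and 47.6 FPKM. Of 9 listed fibroblast markers, 7 were in the table and 3 passed the expression filter. Pdgfra was called higher, Dcn lower and Pdgfrb (22.7 to 24.2 FPKM) in neither direction. Both listed markers of a mesenchymal state were abundant. Vim (1195 to 1306 FPKM) was not called, and Fn1 (254 to 332 FPKM) was called lower. No myeloid or endothelial marker (3 and 2 in the table) passed the filter. Of 4 listed markers of RNA quality and stress, 3 were in the table, and 1 of them, Jun, was called lower. Jun lay between 16.1 and 16.7 FPKM with control CM and between 12.01 and 13.5 with Tdo2high CM. Fos (2.51 to 3.63 and 2.04 to 2.59 FPKM) and Hspa1b (1.72 to 2.17 and 1.78 to 1.91 FPKM) were not called. The part of these genes in the results below was not tested.

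The members lie apart in the genome (GRCm38.p6, RefSeq). Txn1 (chr4:57943373-57956411) and Prdx1 (chr4:116685599-116700000) share chromosome 4. Prdx3 (chr19:60864066-60874538) and Prdx5 (chr19:6906697-6910106) share chromosome 19. Txnrd1 spans chr10:82833951-82897724, Txnrd2 chr16:18426417-18479073, Txn2 chr15:77915051-77928994, Srxn1 chr2:152105524-152111376, Prdx2 chr8:84969622-84974811 and Prdx6 chr1:161240112-161251210. RefSeq promoter windows, from 250 bases before to 50 after an annotated start, were found for 9 of the 10 members, all but Prdx6, in 11 windows. They were searched on both strands for the core of the antioxidant response element, TGACNNNGC. The 3 members with a match were Prdx1, Txnrd1 and Srxn1, and each match lay on the strand opposite to the gene. Among tested genes with a window, 1498 of 8752 (17.1%) held the core, and among all 32851 windows 12.4% did. A match is a string of letters and was not tested as a binding site. The stretches holding the 3 matches are shown because these genes had the 3 largest rises among the members. Each is written 5′ to 3′ on the strand of the gene, with the match in capitals. Those of Prdx1 (chr4:116685349-116685543) and Txnrd1 (chr10:82859009-82859178), both on the plus strand, are the part of the 250 bases before the start that lies in no annotated exon. That of Srxn1 (chr2:152105542-152105571, plus strand) lies in its first exon.
Prdx1: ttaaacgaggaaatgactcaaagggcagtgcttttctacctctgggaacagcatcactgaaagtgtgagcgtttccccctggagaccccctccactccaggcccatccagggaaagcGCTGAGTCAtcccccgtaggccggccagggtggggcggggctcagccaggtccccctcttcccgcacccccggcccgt
Txnrd1: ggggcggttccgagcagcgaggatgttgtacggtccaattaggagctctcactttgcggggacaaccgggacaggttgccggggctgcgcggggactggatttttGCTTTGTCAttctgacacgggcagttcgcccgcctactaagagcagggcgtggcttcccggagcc
Srxn1: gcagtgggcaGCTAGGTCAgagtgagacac
The match of Prdx1 begins 133 bases before the start (chr4:116685466-116685474), that of Txnrd1 92 bases before the second of its 3 annotated starts (chr10:82859114-82859122), and that of Srxn1 at base 29 after its start (chr2:152105552-152105560).

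The question was how the Tdo2high medium changed the chain relative to control CM, and whether its cytosolic and mitochondrial arms moved alike. After Tdo2high CM 5 of the 6 cytosolic members rose: Srxn1 by 1.67-fold, Txnrd1 by 1.51-fold, Prdx1 by 1.24-fold, Txn1 by 1.14-fold and Prdx6 by 1.13-fold. The sixth, Prdx2, was at 1.06 times its control level and did not pass. Of the mitochondrial members Txnrd2 fell, to 0.878 of its control level, while Prdx3, at 1.07 times, and Txn2, at 0.951 times, did not pass. In counts by limma at an adjusted p under 0.05, 5 of 6 cytosolic members were called higher and none lower, and 1 of 3 mitochondrial members was called lower and none higher. Over all tested genes 3.35% were called higher and 4.06% lower, together 7.41%. At an unadjusted p under 0.05 limma gave 6 higher and 0 lower among the cytosolic members, and 1 higher and 2 lower among the mitochondrial ones, where 9.68% of all tested genes were higher and 14.1% lower. In these bulk samples, less RNA per cell and fewer cells that express a gene cannot be told apart.

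**Figure D1:**
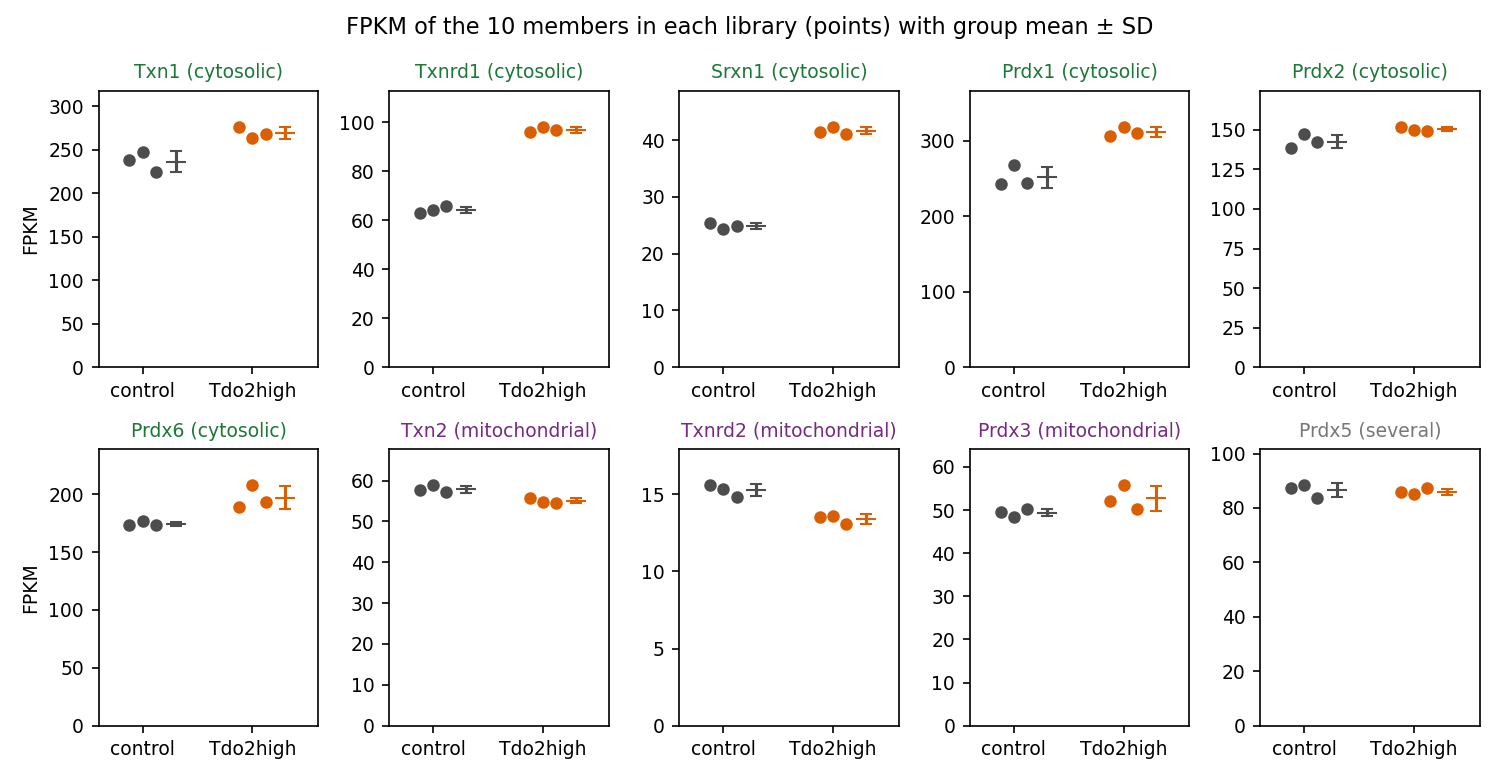
FPKM (vertical axes, each from 0) of the 10 members in the 3 control CM libraries (grey points) and the 3 Tdo2high CM libraries (orange points), with the group mean and SD beside them. Relative to their levels, Srxn1 and Txnrd1 show the widest gaps between the groups. Txnrd2 and Txn2 are lower with Tdo2high CM, and the Prdx5 groups overlap.

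The reductases moved in opposite directions. Txnrd1, the cytosolic enzyme that recharges Txn1, had 63.0, 64.0 and 65.7 FPKM in the control libraries and 95.9, 98.3 and 96.8 FPKM with Tdo2high CM. The lowest Tdo2high library lay far above the highest control library. The change was 0.59 ± 0.03 (SE) in log2(FPKM + 1), the scale of all log2 fold changes here, with an adjusted p of 1.73e-06 by limma. Its gene has 4 RefSeq transcripts and several starts, and the table gives 1 value for all of them. Txnrd2, the mitochondrial enzyme, had 15.6, 15.3 and 14.9 FPKM with control CM and 13.6, 13.6 and 13.1 FPKM with Tdo2high CM. The groups did not overlap, and the log2 fold change was -0.18 ± 0.04 (adjusted p = 0.0245 by limma). That call ended when control replicate 1 (adjusted p = 0.0820 by limma) or 2 (0.0603) or Tdo2high replicate 1 (0.0559), 2 (0.0598) or 3 (0.0875) was left out, and with no filter on low values (0.0519), at log2 fold changes of -0.18 to -0.16.

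Of the thioredoxins, the cytosolic one rose and the mitochondrial one did not pass. Txn1, the cytosolic electron carrier, had 238, 247 and 224 FPKM with control CM and 276, 263 and 268 FPKM with Tdo2high CM. The lowest Tdo2high library stood above the highest control library. The log2 fold change was 0.19 ± 0.04 (adjusted p = 0.0180 by limma), a call that ended without Tdo2high replicate 1 (0.0638) or 3 (0.0514) and with no filter on low values (0.0780). Txn1 has a processed pseudogene, Txn-ps1, identical to it at 95.8% over 309 bases, which could take some of its reads. Txn2, its mitochondrial counterpart, had 57.6, 58.9 and 57.1 FPKM with control CM and 55.7, 54.7 and 54.6 FPKM with Tdo2high CM. All 3 Tdo2high libraries were below the control libraries, yet the log2 fold change of -0.07 (95% interval -0.13 to -0.0099) did not pass, at an adjusted p of 0.152 by limma.

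Among the peroxiredoxins, the most abundant one had the largest log2 fold change. Prdx1 had 243, 268 and 244 FPKM with control CM and 306, 319 and 311 FPKM with Tdo2high CM. Replicate 2 was the highest of its group with either medium, and the groups were separate. The log2 fold change was 0.31 ± 0.04 (adjusted p = 0.00153 by limma). Processed pseudogenes Gm21399 and Gm7204 match Prdx1 at 98.3% and 97.5% over 597 bases, so part of its reads may be shared. Prdx6, which is recharged by glutathione rather than thioredoxin, had 173, 177 and 173 FPKM with control CM and 189, 208 and 194 FPKM with Tdo2high CM. Its log2 fold change was 0.17 ± 0.04 (adjusted p = 0.0203 by limma). The call of Prdx6 ended without control replicate 1 (0.0634) or 3 (0.0589) or Tdo2high replicate 2 (0.0507), and with no filter on low values (0.0778).

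The other peroxiredoxins did not pass. Prdx2, also cytosolic, had 139, 147 and 142 FPKM with control CM and 152, 150 and 150 FPKM with Tdo2high CM, a log2 fold change of 0.08 (95% interval 0.01 to 0.14, adjusted p = 0.142 by limma). The groups were separate by a margin smaller than the spread of the control libraries. Exons of Junb and Rnaseh2a on the opposite strand cover 173 and 177 of its 3050 exon bases, reads that cannot be told apart since the labels do not state that strand was used in counting, and a processed pseudogene, Tdpx-ps1, matches it at 96.3% over 597 bases. Prdx3, the mitochondrial peroxiredoxin, had 49.5, 48.5 and 50.1 FPKM with control CM and 52.1, 55.8 and 50.2 FPKM with Tdo2high CM, so the groups nearly touched. Its log2 fold change was 0.09 (95% interval 0.0039 to 0.18, adjusted p = 0.193 by limma), positive like those of the cytosolic members. Prdx5 had 87.4, 88.4 and 83.6 FPKM with control CM and 85.8, 85.1 and 87.2 FPKM with Tdo2high CM. It was the only member whose groups overlapped, with a log2 fold change of -0.0071 (95% interval -0.07 to 0.06, adjusted p = 0.916 by limma) whose sign turned under the median of ratios and without any 1 of 3 libraries. Of the exon bases of Prdx5, 409 of 2139 are also exon of Trmt112 on the opposite strand, at mean levels of 39.9 and 39.3 FPKM.

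Srxn1, the sulfiredoxin that repairs overoxidised peroxiredoxins, had the largest rise of the 10. It stood at 25.4, 24.4 and 24.9 FPKM with control CM and at 41.5, 42.4 and 41.1 FPKM with Tdo2high CM. Libraries of a group lay close together and the groups far apart. Its log2 fold change was 0.72 ± 0.03 (adjusted p = 9.54e-07 by limma), higher than that of 99.8% of the tested genes. For Txnrd1 that share was 99.7%, for Prdx1 98.9%, for Txn1 96.5% and for Prdx6 95.6%. The calls of Srxn1, Txnrd1 and Prdx1 held under all 14 alternative settings, at adjusted p of up to 0.000145, 0.000199 and 0.0227 by limma.

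**Figure D2:**
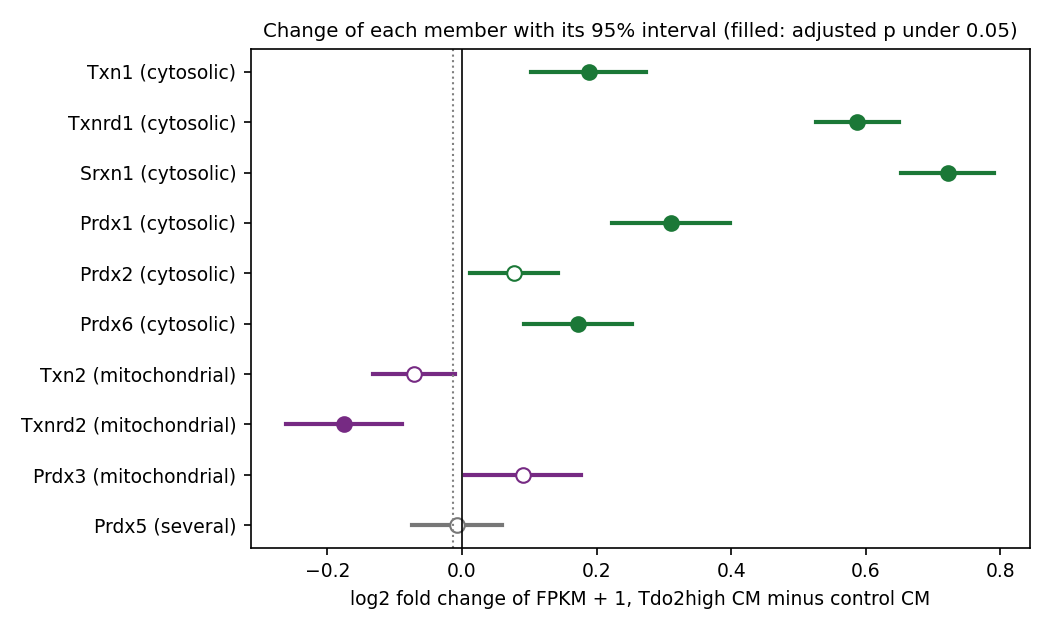
Log2 fold change of FPKM + 1 (horizontal axis, Tdo2high CM minus control CM) of each member with its 95% interval, green for cytosolic, purple for mitochondrial and grey for Prdx5; filled points passed an adjusted p under 0.05 by limma, and the dotted line is the median of all tested genes, -0.0136. Srxn1 (0.72) and Txnrd1 (0.59) lie farthest to the right and Txnrd2 (-0.18) farthest to the left.

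Set by compartment, the median log2 fold change was 0.25 for the 6 cytosolic members and -0.07 for the 3 mitochondrial members, a difference of 0.32, against a median of -0.01 for all tested genes. With Prdx5 counted as cytosolic the difference was 0.26. The libraries of the groups were separate and higher with Tdo2high CM in 7 of 10 members, where 11.6% of all tested genes were, and separate and lower in 2 of 10, where 17.5% of all tested genes were (29.2% in either direction). The 7 included Prdx3, so that the sign of the change did not sort fully by compartment.

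**Figure D3:**
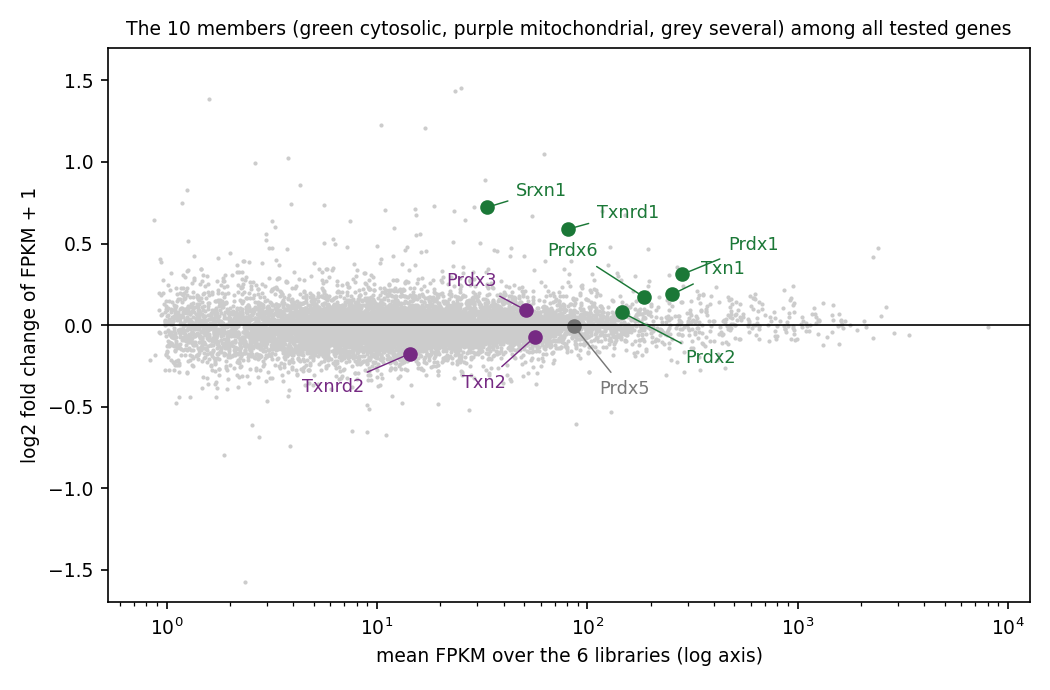
Mean FPKM over the 6 libraries (horizontal log axis) against the log2 fold change of FPKM + 1 (vertical axis) for the 10804 tested genes (light grey), with the 10 members named in green (cytosolic), purple (mitochondrial) and grey (Prdx5). Srxn1, Txnrd1 and Prdx1 stand above most genes of like level, while Txn2, Prdx2, Prdx3 and Prdx5 lie within the cloud.

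To test whether the arms differed, each cytosolic gene was set against its mitochondrial partner within each library, as the log2 ratio of FPKM + 1. For Txnrd1 over Txnrd2 this ratio was 1.95, 1.99 and 2.07 with control CM and 2.74, 2.77 and 2.80 with Tdo2high CM. The ratio was higher in every Tdo2high library, by 0.76 ± 0.04 (SE) on average. For Txn1 over Txn2 it was 2.03, 2.05 and 1.95 with control CM and 2.29, 2.25 and 2.27 with Tdo2high CM, a difference of 0.26 ± 0.03. For Prdx1 over Prdx3 it was 2.27, 2.44 and 2.26 with control CM and 2.53, 2.49 and 2.61 with Tdo2high CM, a difference of 0.22 ± 0.07. These 3 pairs were separate between the groups. The ratio of Prdx2 over Prdx3 overlapped, with means of 1.511 ± 0.06 and 1.498 ± 0.08 (SD, n = 3 per group), a difference of -0.01 ± 0.06 (SE) whose sign turned without replicate 2 of either group. An exact two-sided permutation test with 3 libraries against 3 cannot go below p = 0.1, the value reached by each of the 3 separate pairs (0.133 after Benjamini-Hochberg adjustment over 4 pairs), and Prdx2 over Prdx3 had p = 0.9. No pair could therefore pass a threshold of 0.05 in this design.

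**Figure D4:**
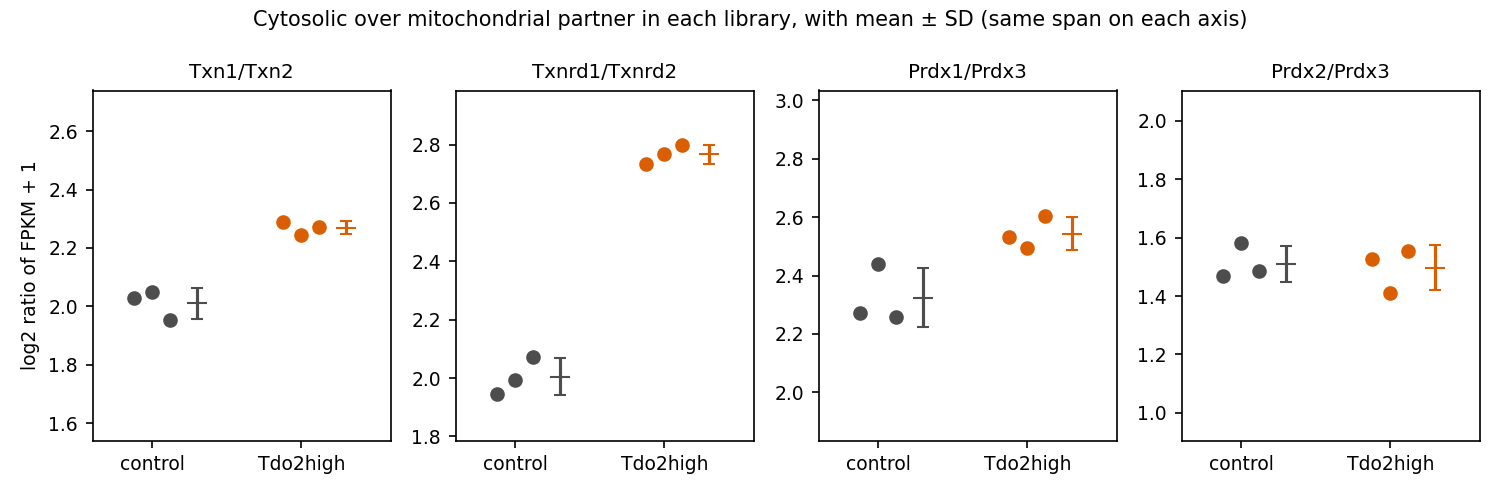
Log2 ratio of FPKM + 1 (vertical axes, all of the same span) of a cytosolic gene over its mitochondrial partner in each of the 3 control CM (grey) and 3 Tdo2high CM (orange) libraries, with mean and SD beside the points. The ratio is higher in all Tdo2high libraries for Txn1/Txn2, Txnrd1/Txnrd2 and Prdx1/Prdx3, by 0.26, 0.76 and 0.22, and overlaps for Prdx2/Prdx3.

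By level with control CM, the order was Prdx1 (252 ± 13.99 FPKM, SD, n = 3), Txn1 (236 ± 11.7), Prdx6 (174 ± 2.00), Prdx2 (143 ± 4.26), Prdx5 (86.5 ± 2.57), Txnrd1 (64.2 ± 1.35), Txn2 (57.9 ± 0.922), Prdx3 (49.4 ± 0.828), Srxn1 (24.9 ± 0.535) and Txnrd2 (15.3 ± 0.381). Only Prdx1 and Txn1 overlapped among neighbours in that order. With Tdo2high CM, Prdx1 reached 312 ± 6.38 FPKM and Txn1 269 ± 6.66, and Txnrd1, at 97.0 ± 1.18, stood above Prdx5, at 86.0 ± 1.08, which had been above it with control CM.

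The make-up of the peroxiredoxin pool and the ratios between members of the chain were also computed. They were chosen after the values of the members had been seen and are given without a test. The 5 peroxiredoxins among the members together had 705 ± 20.8 FPKM in the control libraries and 798 ± 17.1 in the Tdo2high libraries. Prdx4, which is not a member, was left out of this sum, with means of 110 and 112 FPKM. Prdx1 made up 35.7 ± 0.915% and 39.1 ± 0.150% of that sum, Prdx5 12.3 ± 0.314% and 10.8 ± 0.335%, and Prdx6 24.8 ± 0.442% and 24.7 ± 0.695%. Per 100 FPKM of Prdx1, Prdx2 and Prdx3, Srxn1 had 5.89, 5.26 and 5.70 FPKM in the control libraries and 8.13, 8.08 and 8.06 FPKM in the Tdo2high libraries, with every Tdo2high library above every control library. Per 100 FPKM of Txn1, Txnrd1 went from 27.2 ± 1.85 to 36.1 ± 1.31 FPKM, and per 100 FPKM of Txn2, Txnrd2 went from 26.4 ± 0.617 to 24.4 ± 0.463 FPKM. The ratios of reductase to thioredoxin overlapped between the arms with control CM (25.9 to 29.4 and 26.0 to 27.1) and lay apart with Tdo2high CM (34.7 to 37.3 and 23.9 to 24.8).

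Srxn1, as the member with the largest rise, was compared with all other tested genes over the 6 libraries. The 5 genes most like it by Pearson's r of log2(FPKM + 1) were Mindy1 (r = 0.9997), St3gal1 (0.9991), Epn2 (0.998), Gclc (0.998) and Selp (0.997). All 5 were higher with Tdo2high CM, from 13.9 to 23.6 FPKM for Gclc, the catalytic subunit of glutamate-cysteine ligase, and from 51.2 to 55.8 FPKM for St3gal1. Over 2 groups of 3 libraries r mostly reports how cleanly a gene separates the groups, and 66 genes exceeded 0.98. Among the members, r with Srxn1 was 0.996 for Txnrd1, 0.944 for Prdx1, 0.906 for Prdx6, 0.886 for Txn1 and 0.805 for Prdx2. Of the mitochondrial members it was -0.948 for Txnrd2 and -0.924 for Txn2 but 0.732 for Prdx3, and it was -0.152 for Prdx5.

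Of the wider thioredoxin family, 16 related genes, none was called in either direction by limma, with 2 higher and 4 lower at an unadjusted p under 0.05 (9.68% and 14.1% of all tested genes). Prdx4, the peroxiredoxin of the endoplasmic reticulum, had 110 ± 9.17 FPKM in the control libraries and 112 ± 5.66 in the Tdo2high libraries (log2 fold change 0.03, 95% interval -0.09 to 0.16, and -0.0036 without control replicate 3). Txnip, which binds and inhibits thioredoxin, had 59.3, 59.8 and 63.5 FPKM with control CM and 51.9, 53.4 and 65.6 FPKM with Tdo2high CM. Tdo2high replicate 3 was thus the highest of all 6. The log2 fold change of Txnip was -0.10 (adjusted p = 0.450 by limma) and -0.21 without that library (adjusted p = 0.0240). Txnrd3, the testis-enriched reductase, stood at 1.32 ± 0.265 and 1.6 ± 0.201 FPKM and did not pass (adjusted p = 0.348 by limma).

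Partners of thioredoxin, 8 genes of ribonucleotide reductase, methionine sulfoxide reductases and the kinase Map3k5, had none called by limma and 0 higher and 1 lower at an unadjusted p under 0.05. The 6 genes of selenoprotein synthesis, which makes both thioredoxin reductases, also had none called, and 1 higher and 0 lower at an unadjusted p under 0.05, against the same shares of all tested genes. In the glutaredoxin system 1 of 5 was called higher and none lower, where 3.35% and 4.06% of all tested genes were. It was glutathione reductase Gsr, the counterpart of thioredoxin reductase in the glutathione chain. Gsr went from 24.8 ± 0.739 to 30.3 ± 0.440 FPKM (log2 fold change 0.28 ± 0.03, adjusted p = 0.00124 by limma). Glrx, the cytosolic glutaredoxin, had 66.6 ± 5.25 and 73.8 ± 2.73 FPKM (0.15, adjusted p = 0.110 by limma, and 0.0140 without control replicate 2).

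Genes listed for the making of NADPH, which feeds the chain, were also set out by compartment. All 4 listed cytosolic NADPH enzymes rose: Pgd from 116 ± 1.49 to 186 ± 4.30 FPKM, G6pdx from 110 ± 3.44 to 142 ± 3.07, Me1 from 29.5 ± 1.10 to 37.6 ± 0.815, and Idh1, named after its value was seen, from 130 ± 3.03 to 158 ± 0.805. Of 4 listed as mitochondrial, none was called higher and 2 were called lower. Over all tested genes 3.35% were called higher and 4.06% lower. Both lists were chosen with earlier results of these data known. Mthfd2, a folate enzyme whose share in making NADPH was not tested, went from 13.6 ± 0.927 to 9.81 ± 0.425 FPKM (log2 fold change -0.43 ± 0.05, adjusted p = 0.00137 by limma). Idh2, the mitochondrial isocitrate dehydrogenase that yields NADPH, went from 84.2 ± 2.83 to 75.8 ± 2.29 FPKM (-0.15 ± 0.03, adjusted p = 0.0288 by limma). The call of Idh2 ended without control replicate 1 (0.0926) or 2 (0.0767) or Tdo2high replicate 2 (0.101) or 3 (0.0826) and with no filter on low values (0.0846). At an unadjusted p under 0.05 limma gave 4 higher and 0 lower in the cytosolic list, and 1 higher and 2 lower in the mitochondrial list. Of all tested genes 9.68% were higher and 14.1% lower. The mitochondrial gene that was higher was Me3, from 47.1 ± 0.943 to 50.8 ± 1.85 FPKM (log2 fold change 0.11 ± 0.03, adjusted p = 0.0842 by limma). The median log2 fold change was 0.35 for the cytosolic and -0.07 for the mitochondrial list, and the difference between the lists was not tested.

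Among 7 tested genes for other peroxide and superoxide enzymes, 2 were called higher by limma and none lower. Of all tested genes 3.35% were called higher and 4.06% lower. At an unadjusted p under 0.05 limma gave 4 higher and 2 lower, where 9.68% and 14.1% of all tested genes were. The 2 lower ones were Gpx1, from 96.6 to 92.1 FPKM (adjusted p = 0.197 by limma), and Sod3, from 4.26 to 3.3 FPKM (0.0724). Sod1, the cytosolic superoxide dismutase, went from 261 ± 13.4 to 308 ± 2.74 FPKM (log2 fold change 0.24 ± 0.04, adjusted p = 0.00501 by limma). Cat, catalase of the peroxisome, went from 42.5 ± 0.929 to 47.4 ± 1.46 FPKM (0.15 ± 0.03, adjusted p = 0.0223 by limma). The call of Cat ended without control replicate 1 (0.0765) or 3 (0.0631) or Tdo2high replicate 2 (0.0786) or 3 (0.0751) and with no filter on low values (0.0590). Sod2, the mitochondrial dismutase, had 9.43 ± 0.0700 and 9.77 ± 0.0702 FPKM (0.05, 95% interval -0.04 to 0.14, adjusted p = 0.518 by limma).

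**Figure D5:**
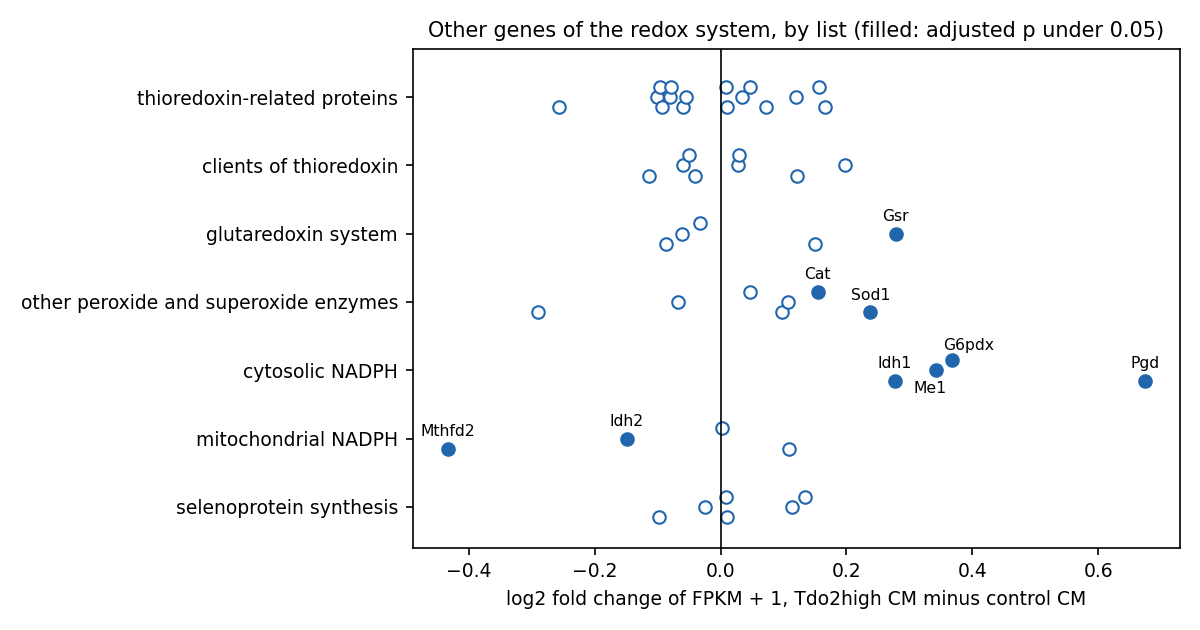
Log2 fold change of FPKM + 1 (horizontal axis, Tdo2high CM minus control CM) of the tested genes of 7 lists around the thioredoxin system, 1 point a gene, shifted vertically only to keep points apart; filled and named points passed an adjusted p under 0.05 by limma. All 4 cytosolic NADPH genes lie to the right, Mthfd2 and Idh2 to the left, and no point is filled in the lists of thioredoxin-related proteins, clients of thioredoxin and selenoprotein synthesis.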

How the data were processed

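PolyA RNA was copied with random hexamers and sequenced at BGI, per the labels' protocols, on build GRCm38, per the submitters' processing notes. Neither aligner nor quantifier nor annotation is given in the sources used here. FPKM values, rounded to 2 decimals, were deposited by the authors for 16426 genes. Whole reads could not be recovered from low values (mean distance of 3287 values to a whole multiple of the smallest value of the gene 0.262, where 0.25 is no step), so no count model was used. Genes with at least 1 FPKM in at least 3 libraries (10804) were tested as log2(FPKM + 1) with limma 3.58.1 in R 4.3.3 (trend, two-sided, no replicate block), Benjamini-Hochberg adjusted over all of them. All 10 members passed. Members and lists were chosen with earlier results of these data known. The text names all members, 5 genes most like Srxn1, up to 3 called genes per list and 8 set by role. Idh1, Me3, Gpx1, Sod3 and genes that share exons or sequence with members were named after their values were seen. Transcripts of other genes matching at 95% or more over at least 150 bases were sought with BLAST 2.17.0 in GENCODE M21, which also gave exon overlaps, not all of which are reported here. The test was tried on simulated data. A comparison of protein sequences was planned and is not reported here. Same-numbered libraries did not deviate together (r = -0.023, -0.03 and 0.018), so the numbers were not taken as pairs. Alternatives were another pseudocount, filters, scalings, robust variances, a replicate block and leaving out each library.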

Additional observations from a re-analysis of the deposited data

How the results depend on the processing

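The direction of 9 of the 10 members held under each alternative. Prdx5, near 0, turned to 0.0056 under the median of ratios, 0.0010 without control replicate 1, 0.0090 without control replicate 2 and 0.00098 without Tdo2high replicate 2, from a low of -0.0313 without control replicate 3. Prdx4 turned to -0.0036 without control replicate 3, against 0.101 without control replicate 2. With no filter on low values, which adds genes to the test, 193 genes were higher and 182 lower, 3 members were higher and 0 lower, and 1 other pathway gene was lower. Leaving out 1 library gave 207 to 293 genes higher and 188 to 263 lower, against 362 and 439, with 4 to 5 members higher, 0 to 1 lower, and 1 to 2 other pathway genes lower. The compartment difference ran from 0.26, with Prdx5 as cytosolic, to 0.35. The ratio of Prdx2 to Prdx3 turned to 0.0218 without control replicate 2 and 0.0306 without Tdo2high replicate 2, and ran down to -0.0425 without Tdo2high replicate 3. With a replicate block, 296 genes were higher and 326 lower and 5 members higher and 1 lower; the block changed no call of a member, and the paired ratios could not go below an exact p of 0.25. No control library correlated best with its own number (0 of 3). The TPM scale gave 314 higher and 496 lower genes and the median of ratios 434 and 371. Read depth is unknown, so its limits on precision could not be given.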
